A study of Mus musculus with 10 samples.

Results

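The genes described here encode the protein scaffold of the extracellular matrix: every collagen chain, every laminin chain, and fibronectin, both nidogens, Sparc and perlecan, in mouse embryonic stem cells. They were taken by symbol, as all genes named Col or Lam with a chain number, plus Fn1, Nid1, Nid2, Sparc and Hspg2. This gave 60 of the 24015 genes counted, of which 44 were collagen chains, 11 were laminin chains and 5 were the others. Not every collagen is a basement membrane protein, so the set also holds fibrillar and transmembrane collagens. The cells came from the inner cell mass of the blastocyst, carried a reporter of Wnt/β-catenin pathway activity and grew with leukaemia inhibitory factor (LIF) on gelatin-coated plates, split about every 48 h. The 2i/LIF medium held a GSK3 inhibitor at 3 µM and the ERK pathway inhibitor PD at 1 µM. The 10 RNA-seq libraries form 5 groups of 2. The serum group had grown in serum/LIF, first 2i had spent 5 to 6 passages in 2i/LIF, and long 2i had spent more than 13. Serum return had spent more than 13 passages in 2i/LIF and then 6 in serum/LIF, and its label does not name the sampled long 2i as its source. Second 2i had a history of 13 passages in 2i/LIF, 6 in serum/LIF and 4 to 5 again in 2i/LIF, and its label does not say that it was grown from the sampled serum return. Reporter and LIF were common to all groups. The labels name no line or clone and leave unsaid whether the libraries of a group stem from separate cultures. The error behind every p-value is therefore the difference within pairs of libraries, and it may be purely technical.

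A basement membrane is a thin sheet of matrix on which epithelia, endothelium and the first embryonic cell layers rest. Laminins, trimers of an alpha, a beta and a gamma chain, assemble at the cell surface and bind integrins and dystroglycan, collagen IV forms a second network, and nidogens and perlecan link the networks. In the blastocyst the primitive endoderm and its parietal descendants are the main makers of basement membrane, and pluripotent cells themselves also make laminin and fibronectin.

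Gene counts totalled 16809070 to 27766338 per library, and the 60 genes held 0.412 to 0.596% of them. Levels are CPM, counts scaled to a fixed library total over the tested genes after TMM adjustment. Of the 60 genes, 42 passed the filter on low counts and were tested, and 18 did not. Those 18 had at most 24 counts in any library. Col6a1 reached 24, Col3a1 20, Col15a1, Col16a1 and Col6a3 10 each, Col14a1 9, Lamc3 8, Col10a1 7, Col4a3 6 and Col4a4 4. Col12a1 and Col8a1 reached 3, Col24a1, Col25a1 and Col4a6 reached 2, and Col19a1, Col28a1 and Col9a1 reached 1. In serum return the ribosomal RNA gene Rn45s stood at 15480 CPM in replicate 2 and 2496 CPM in replicate 1. Leaving it out changed no count of called members. Embryonic stem cell markers were abundant in all groups, at 5015 to 7479 CPM summed over 12 genes, with the lowest sums in long 2i.

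The per-length order of levels was led by the adhesive glycoproteins. In serum, per kilobase of exon, Fn1 stood at 185 CPM, Lamc1 at 118, Sparc at 66.4, Nid2 at 57.9, Nid1 at 47.6, Col18a1 at 43.8, Hspg2 at 31.3, Lama5 at 24.3 and Col4a1 at 19.1. The exon lengths come from GENCODE vM21, which need not be the annotation used for the counting.

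**Figure D1:**
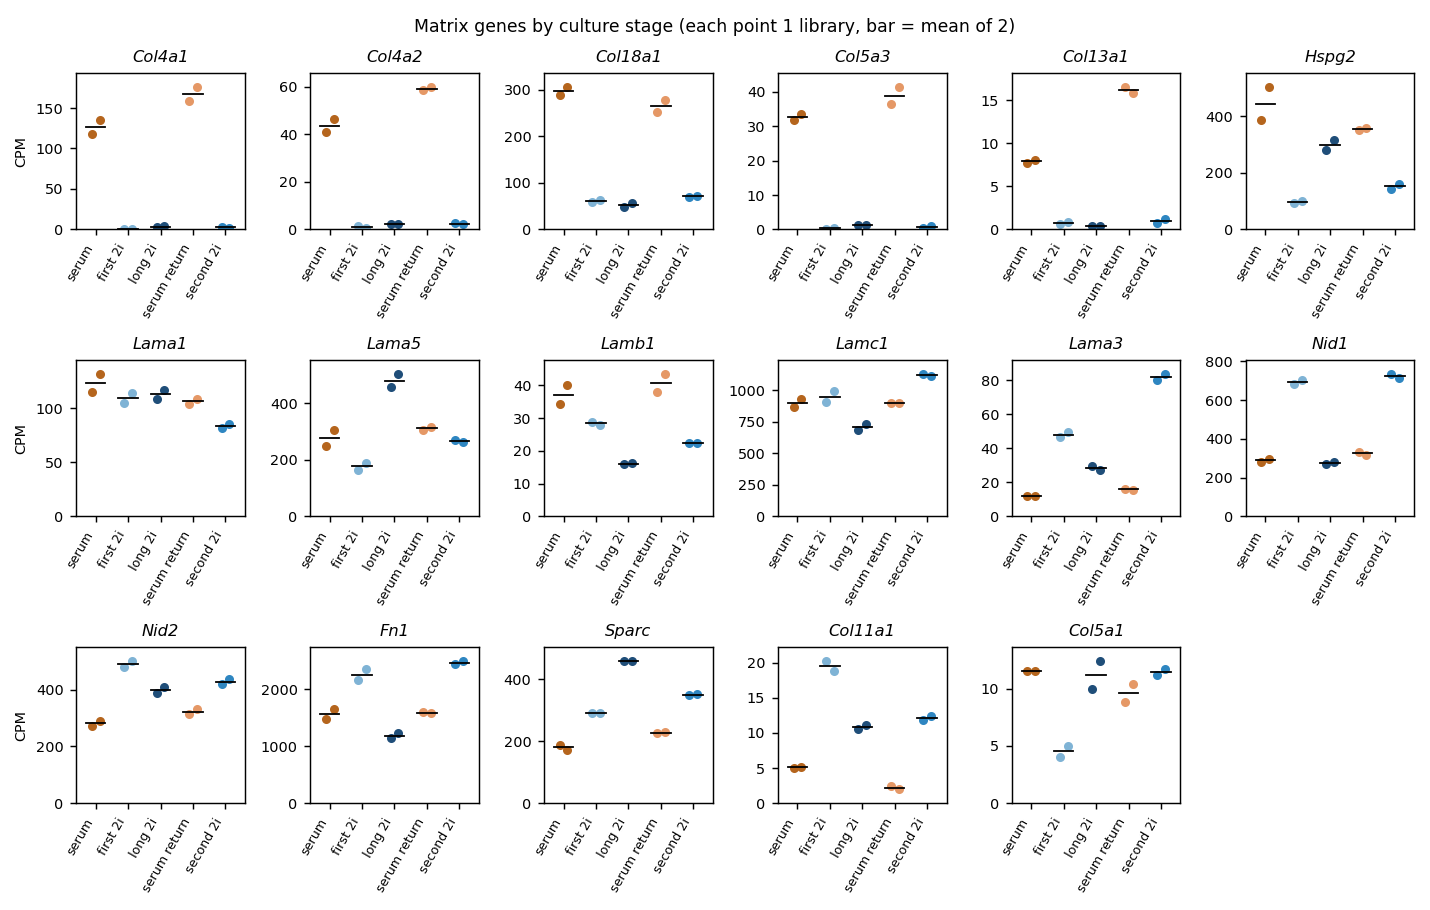
CPM of 17 matrix genes in each library (points) with the mean of the 2 libraries of a group (bars), by culture stage; each panel has its own linear axis from 0. Col4a1, Col4a2, Col5a3, Col13a1 and Col18a1 were high in the 4 serum-grown libraries and low in the 6 libraries in 2i, while Nid1, Nid2, Lama3 and Sparc were lowest in the serum-grown ones, apart from Nid1, which was at its serum level in long 2i.

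The first stay in 2i shifted most of these genes, in both directions. Of the 42 tested members 37 differed between first 2i and serum (edgeR, adjusted p under 0.05), 15 higher and 22 lower, where 70% of all genes tested were called, 35.1% higher and 34.9% lower. The median log2 fold change was -0.49 over the members and 0.01 over all genes. Collagen chains accounted for most of the falls, with 17 of the 27 tested lower and 6 higher (median -1.35). Laminin chains were split, with 5 higher and 4 lower of 10. A gene with few counts passed the filter only through the groups where it was high, so such counts describe the set and support nothing about it. Of the 37 calls, 26 also held under each of the 10 alternatives run for this comparison, 10 of them higher and 16 lower.

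Col4a1 and Col4a2, the core collagen IV genes, fell to a trace in 2i and came back in serum. Col4a1, which with Col4a2 forms the collagen IV network of nearly all basement membranes, had 118 and 136 CPM in serum, 0.842 and 0.828 CPM in first 2i, 3.13 and 3.80 CPM in long 2i, 159 and 175 CPM in serum return, and 2.89 and 2.32 CPM in second 2i. All 4 serum-grown libraries lay far above all 6 libraries in 2i. The log2 fold change was -7.23 ± 0.14 (SE) in first 2i against serum (adjusted p = 1.37e-19) and -6.0 ± 0.12 in second 2i against serum return (adjusted p = 2.36e-19). Col4a2 had 41.0 and 46.2 CPM in serum, 1.54 and 0.633 CPM in first 2i, 2.13 and 2.38 CPM in long 2i, 58.5 and 59.6 CPM in serum return, and 2.56 and 2.16 CPM in second 2i. Its media groups did not overlap either, and the fold change in first 2i against serum was -5.31 ± 0.17 (adjusted p = 4.04e-16). Per kilobase Col4a1 exceeded Col4a2 in serum (19.1 against 6.76 CPM) and in serum return (25.3 against 9.16 CPM), but the levels of both were under 0.6 CPM per kilobase in every library in 2i. In bulk RNA, fewer cells that make a transcript and less transcript per cell cannot be told apart, here and in all that follows.

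Of the other collagen IV genes only Col4a5 could be tested, and it rose in first 2i. Col4a5, whose chain is found in collagen IV networks of fewer tissues, averaged 3.53 ± 0.10 CPM in first 2i and 0.328 ± 0.13 CPM in serum (SD, n = 2 each), a log2 fold change of 3.42 ± 0.38 (SE, adjusted p = 7.99e-08). It fell again in long 2i against first 2i (-2.51 ± 0.34, adjusted p = 2.26e-06). Col4a3, Col4a4 and Col4a6, with at most 6 counts in any library, were too low to compare.

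Col4a1 and Col4a2 lie head to head on chromosome 8. In RefSeq (GRCm38.p6) their starts are 21 bases apart on opposite strands, and the windows from 250 bases before to 50 bases after each start share 78 bases. These windows are shown because the pair moved together throughout, beside that of Col5a3, which moved like them, and that of Nid1, which moved the other way. Capitals mark each CCAAT box (CCAAT) and GC box (GGGCGG), on either strand. The windows are Col4a1 at chr8:11312777-11313076 (minus strand), Col4a2 at chr8:11312555-11312854 (plus strand), Col5a3 at chr9:20815018-20815317 (minus strand) and Nid1 at chr13:13437352-13437651 (plus strand).
Col4a1: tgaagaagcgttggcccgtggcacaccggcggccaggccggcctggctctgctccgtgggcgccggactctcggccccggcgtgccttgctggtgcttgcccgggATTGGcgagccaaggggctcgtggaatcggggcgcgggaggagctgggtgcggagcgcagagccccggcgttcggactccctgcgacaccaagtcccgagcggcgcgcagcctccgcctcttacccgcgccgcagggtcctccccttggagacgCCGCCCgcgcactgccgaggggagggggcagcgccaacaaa
Col4a2: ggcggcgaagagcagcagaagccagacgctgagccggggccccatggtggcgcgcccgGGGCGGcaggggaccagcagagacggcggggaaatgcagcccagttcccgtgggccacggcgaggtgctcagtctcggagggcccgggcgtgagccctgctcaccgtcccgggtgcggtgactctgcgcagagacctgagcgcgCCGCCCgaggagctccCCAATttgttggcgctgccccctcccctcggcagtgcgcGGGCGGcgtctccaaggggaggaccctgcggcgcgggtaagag
Col5a3: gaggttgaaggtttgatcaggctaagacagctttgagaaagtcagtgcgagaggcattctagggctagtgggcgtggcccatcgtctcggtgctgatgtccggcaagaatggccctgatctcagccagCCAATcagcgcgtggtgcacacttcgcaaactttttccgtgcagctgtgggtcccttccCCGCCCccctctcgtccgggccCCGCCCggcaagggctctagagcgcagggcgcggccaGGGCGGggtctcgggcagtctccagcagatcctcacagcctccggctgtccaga
Nid1: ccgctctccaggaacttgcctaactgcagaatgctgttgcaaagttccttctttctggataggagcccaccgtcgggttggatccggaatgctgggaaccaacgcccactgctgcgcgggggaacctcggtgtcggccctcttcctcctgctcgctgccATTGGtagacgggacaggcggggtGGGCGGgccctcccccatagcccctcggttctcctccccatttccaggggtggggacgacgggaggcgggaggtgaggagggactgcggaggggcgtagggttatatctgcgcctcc
All 4 windows held a CCAAT box and a GC box, and the GC box of Col4a1 lies in the bases shared with Col4a2. The 4 genes were picked for how they moved, so nothing is drawn from this. Whether either letter string goes with the direction of change was not tested. Over all 32851 RefSeq mouse windows of that length, 37.4% held CCAAT and 35.7% held GGGCGG on either strand. Of the 60 genes 43 had such windows, 47 in all, of which 15 held CCAAT and 28 held GGGCGG. The AP-1 letters TGANTCA stood in 1 of the 47 (Col6a1) against 7.81% of all windows, the Ets letters CCGGAAGT in 0 against 3.89%, and the Tcf/Lef letters ATCAAAG in 1 (Col9a2) against 3.73%. A match is a description of letters and was not tested as a binding site.

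Col18a1 and Hspg2, the collagen and the heparan sulphate proteoglycan that bridge basement membrane networks, were lower in first 2i at much higher levels. Col18a1 had 289 and 305 CPM in serum, 58.9 and 62.2 CPM in first 2i, 47.9 and 57.3 CPM in long 2i, 253 and 279 CPM in serum return, and 70.5 and 72.7 CPM in second 2i. The lowest serum-grown library was over the highest in 2i, and the log2 fold change was -2.29 ± 0.071 in first 2i against serum (adjusted p = 3.03e-16). Hspg2, which encodes perlecan, had 388 and 502 CPM in serum, 93.5 and 101 CPM in first 2i, 283 and 317 CPM in long 2i, 352 and 358 CPM in serum return, and 144 and 161 CPM in second 2i. It was low early in each stay in 2i (-2.20 ± 0.13 in first 2i against serum, adjusted p = 1.7e-06), and its long 2i libraries lay between those of first 2i and serum.

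Chains of other collagen classes also fell. In first 2i against serum the fall of Col5a3 lay between those of Col4a1 and Col4a2, and Col13a1, Col9a2, Col9a3 and Col7a1 fell less. Col5a3, a minor fibrillar chain, had 32.0 and 33.5 CPM in serum, 0.281 and 0.292 CPM in first 2i, 1.36 and 1.27 CPM in long 2i, 36.3 and 41.3 CPM in serum return, and 0.545 and 0.896 CPM in second 2i. Its serum-grown libraries were all over 30 CPM and its 2i libraries all under 1.4 CPM (first 2i against serum -6.80 ± 0.19, adjusted p = 2.34e-17). Col13a1, a transmembrane collagen of adhesion sites, had 7.75 and 8.02 CPM in serum, 0.608 and 0.877 CPM in first 2i, 0.355 and 0.370 CPM in long 2i, 16.5 and 15.9 CPM in serum return, and 0.708 and 1.21 CPM in second 2i. The groups in the 2 media did not overlap, and the fall in first 2i was -3.40 ± 0.22 (adjusted p = 2.23e-11). Col9a2 and Col9a3, chains of a fibril-associated collagen of cartilage, are given as means. Col9a2 averaged 0.452 ± 0.088 CPM in first 2i and 8.40 ± 0.091 CPM in serum, and Col9a3 averaged 0.334 ± 0.0095 CPM in first 2i and 1.55 ± 0.58 CPM in serum (SD, n = 2 each). Col7a1, the anchoring fibril collagen under stratified epithelia, averaged 0.599 ± 0.19 CPM in first 2i and 3.80 ± 0.65 CPM in serum. All 3 fell in first 2i, with log2 fold changes of -4.19 for Col9a2, -2.21 for Col9a3 and -2.66 for Col7a1.

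Folds of genes with 3 counts or fewer in a group are given from the counts. With none they are bounds, set against 3 counts per group, and otherwise ratios with an exact 95% interval, both of which cover counting error only. Col8a2, a short-chain collagen best known from the membrane under the corneal endothelium, had 0 counts in the 2 first 2i libraries and 126 in serum, at least 43.9-fold lower. It had 0 counts in second 2i and 72 in serum return, at least 18.1-fold lower. Col6a6 had 2 counts in first 2i and 44 in serum, 23.0-fold lower (6.00 to 196), and Col6a4 had 3 counts in first 2i and 33 in serum, 11.5-fold lower (3.61 to 58.6). Both are collagen VI chains, which form microfibrils next to basement membranes.

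A smaller number of collagens rose or moved apart from the rest. Col11a1, a fibrillar chain best known from cartilage, had 5.02 and 5.21 CPM in serum, 20.2 and 18.8 CPM in first 2i, 10.6 and 11.1 CPM in long 2i, 2.40 and 1.95 CPM in serum return, and 11.9 and 12.4 CPM in second 2i. Every library in 2i exceeded every serum-grown one (first 2i against serum 1.93 ± 0.12, adjusted p = 1.29e-11). Col5a2, another fibrillar chain, averaged 2.19 ± 0.21 CPM in first 2i and 0.980 ± 0.24 CPM in serum (log2 fold change 1.17 ± 0.28, adjusted p = 0.00106). Col5a1, the usual partner of Col5a2, had 11.5 and 11.5 CPM in serum, 4.07 and 4.97 CPM in first 2i, 9.99 and 12.4 CPM in long 2i, 8.86 and 10.4 CPM in serum return, and 11.2 and 11.7 CPM in second 2i. It was low in first 2i alone among the 5 groups, and the fall there was -1.35 ± 0.15 (adjusted p = 7.2e-08). The 3 collagen V chains thus followed different courses across the stages.

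**Figure D2:**
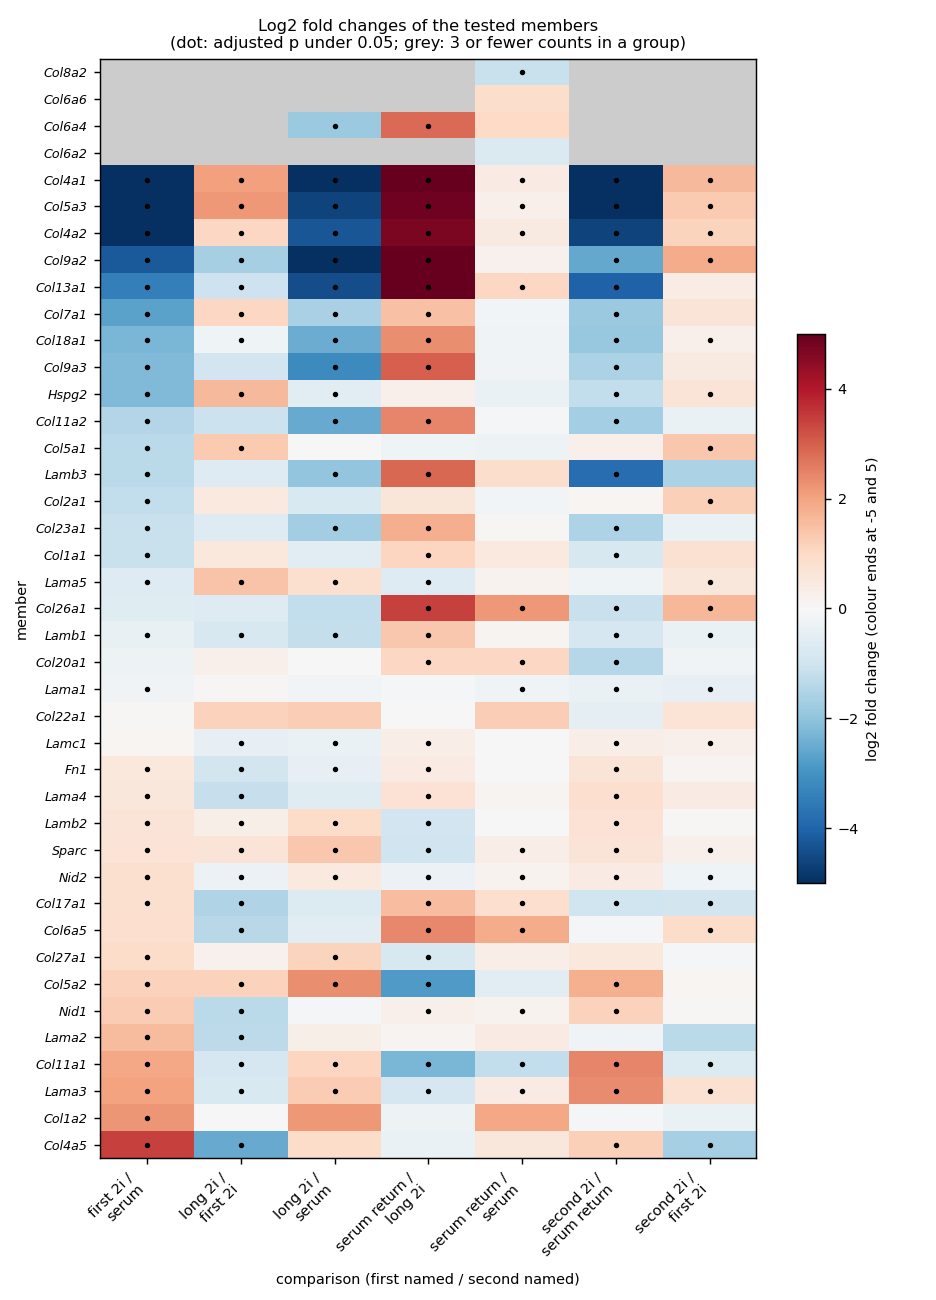
Log2 fold changes (colour, ending at -5 and 5) of 41 tested members in 7 comparisons, ordered by their value in first 2i against serum. Members grey in that comparison (Col6a2, Col6a4, Col6a6 and Col8a2) are placed first whatever their value. Dots mark an adjusted p under 0.05 and grey marks a group with 3 counts or fewer; the collagens at the top were lower in both stays in 2i and higher on serum return.

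Summed markers of endoderm, fibroblasts and endothelium were lower in first 2i than in serum and higher in serum return than in long 2i, as most collagens were, and those of trophectoderm went the opposite way. Their part in these results was not tested. The 19 markers of primitive and parietal endoderm summed to 61.8 to 66.2 CPM in serum, 14.0 to 15.5 in first 2i, 26.0 to 30.9 in long 2i, 72.7 to 75.6 in serum return and 16.4 to 17.3 in second 2i. Of the 14 tested, 7 fell and 3 rose in first 2i against serum, 71.4% called beside 70% of all genes. Sox7 averaged 1.26 CPM in first 2i and 35.3 CPM in serum, and Hnf4a averaged 0.999 CPM in first 2i and 12.8 CPM in serum. Sox7 and Hnf4a together made up most of the serum sum. The 3 that rose, named after their values were seen, were Gata4 (log2 fold change 0.80), Sox17 (1.83) and Thbd (0.83). The defining factors Gata4, Gata6 and Sox17 were low throughout, at group means of 0.132 to 5.99 CPM, and the visceral endoderm genes Afp and Ttr had at most 2 counts in any library. The 14 fibroblast and feeder markers summed to 26.8 to 29.3 CPM in serum, 10.81 to 11.98 in first 2i, 15.1 to 15.9 in long 2i, 39.5 to 44.2 in serum return and 19.3 to 20.2 in second 2i. Of the 8 tested, 3 fell and 1 (Tbx18, likewise named afterwards) rose in first 2i, 50% called, with Thy1 at 0.452 CPM in first 2i and 13.7 CPM in serum. Thy1 alone made up most of the fall of that sum. Twist2 had 0 counts in every library and Prrx1 had at most 1. The 12 endothelial markers summed to 165 to 182 CPM in serum, 120 to 130 in first 2i, 81.9 to 86.7 in long 2i, 175 to 176 in serum return and 85.0 to 90.8 in second 2i, with 5 of 8 tested lower and 2 higher in first 2i against serum (87.5% called). The endothelial sum was lower in long than in first 2i, and Pecam1 made up most of the first 2i sum. Of the 8 tested markers, 4 were higher and 2 lower in long than in first 2i (75% called beside 61.2% of all genes, median log2 fold change 1.62). Robo4 averaged 0.0964 CPM in first 2i and 55.1 CPM in serum, Nos3 averaged 0.526 CPM in first 2i and 44.1 CPM in serum, and Emcn had at most 3 counts. The 2 that rose, again named after their values were seen, were Pecam1, at 120.6 CPM in first 2i and 49.1 CPM in serum, and Kdr, at 1.00 CPM in first 2i and 0.398 CPM in serum. The 12 trophectoderm markers summed to 102 to 105 CPM in serum, 161 to 163 in first 2i, 110 to 114 in long 2i, 72.5 to 79.2 in serum return and 120 to 125 in second 2i. Singly they were mixed. Of the 9 tested, 5 rose and 3 fell in first 2i against serum (88.9% called beside 70% of all genes). In serum return against long 2i, 2 rose and 4 fell (66.7% called beside 71.4%).

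Laminin chains moved in both directions, with a median log2 fold change of 0.32 over the 10 tested in first 2i against serum. Lama1, the alpha chain of the earliest embryonic basement membranes, had 115 and 131 CPM in serum, 105 and 114 CPM in first 2i, 108 and 117 CPM in long 2i, 104 and 109 CPM in serum return, and 81.9 and 85.3 CPM in second 2i. First 2i reached 114 CPM and serum began at 115 CPM. The fall of 0.17 on the log2 scale (adjusted p = 0.0326) was lost without serum replicate 2 (-0.06, adjusted p = 0.455) or without first 2i replicate 1 (-0.10, adjusted p = 0.271). Lama5, the alpha chain of the laminin most used to culture pluripotent cells, had 248 and 305 CPM in serum, 165 and 190 CPM in first 2i, 456 and 502 CPM in long 2i, 305 and 317 CPM in serum return, and 269 and 263 CPM in second 2i. First 2i was the lowest and long 2i the highest of the groups, with no overlap with any other (first 2i against serum -0.64 ± 0.094, adjusted p = 0.000111).

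The beta and gamma partners of these chains did not move as a group. Lamb1 had 34.2 and 40.0 CPM in serum, 28.7 and 28.0 CPM in first 2i, 15.8 and 16.4 CPM in long 2i, 38.0 and 43.4 CPM in serum return, and 22.3 and 22.4 CPM in second 2i. It was lower in each 2i group than in either serum-grown group (first 2i against serum -0.39 ± 0.09, adjusted p = 0.000733). Lamb2, the alternative beta chain, averaged 83.5 ± 5.5 CPM in first 2i and 53.3 ± 2.3 CPM in serum, a rise of 0.65 ± 0.077 (adjusted p = 2.59e-07). Lamc1, the gamma chain shared by most laminins, had 865 and 929 CPM in serum, 908 and 990 CPM in first 2i, 685 and 731 CPM in long 2i, 900.4 and 896 CPM in serum return, and 1125 and 1109 CPM in second 2i. Serum and first 2i overlapped (0.08 ± 0.052, adjusted p = 0.166), and long 2i lay under all other groups.

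Lama3, an alpha chain of the laminin that anchors epithelia through hemidesmosomes, rose in 2i. It had 11.7 and 11.8 CPM in serum, 46.5 and 49.4 CPM in first 2i, 29.3 and 27.0 CPM in long 2i, 16.2 and 15.4 CPM in serum return, and 79.9 and 83.4 CPM in second 2i. Every 2i library exceeded every serum-grown one, and the rise in first 2i against serum was 2.03 ± 0.084 (adjusted p = 1.24e-14). Lamb3, the beta chain that pairs with it in that laminin, did not rise with it: it averaged 0.576 ± 0.22 CPM in first 2i and 1.47 ± 0.72 CPM in serum (log2 fold change -1.33 ± 0.47, adjusted p = 0.0155), a call lost without serum replicate 2 (-0.73, adjusted p = 0.268) or first 2i replicate 1 (-0.98, adjusted p = 0.127). Per kilobase in first 2i, Lamb3 stood at 0.112 CPM, against 4.46 for Lama3, and in second 2i at 0.037, against 7.60 for Lama3.

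**Figure D3:**
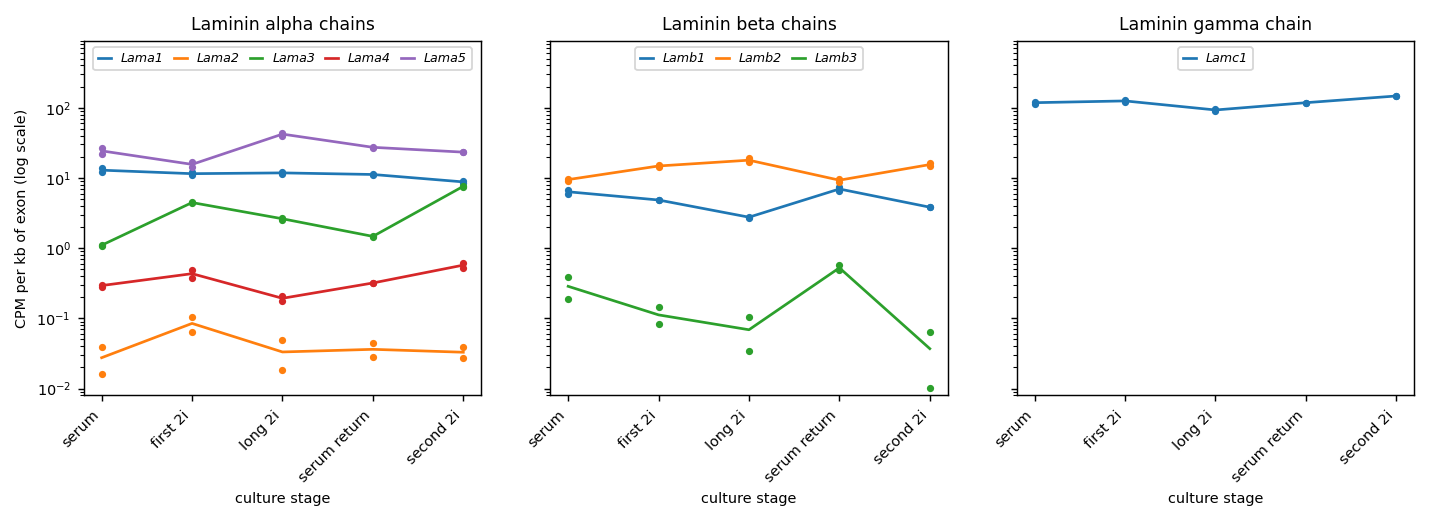
CPM per kilobase of exon (log axis) of 9 tested laminin chains, by culture stage; points are libraries and lines join group means. Lamc1 exceeded the other chains plotted in every group, and Lamb3 stayed under Lamb1 and Lamb2 while Lama3 was higher in 2i.

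Both nidogens, Fn1 and Sparc were higher in first 2i, unlike Hspg2. Nid1, which joins laminin to collagen IV, had 282 and 298 CPM in serum, 683 and 706 CPM in first 2i, 271 and 279 CPM in long 2i, 335 and 319 CPM in serum return, and 734 and 716 CPM in second 2i. It was high early in both stays in 2i and at its serum level in long 2i (first 2i against serum 1.26 ± 0.048, adjusted p = 2.97e-15; long 2i against serum -0.08 ± 0.048, adjusted p = 0.162). Its relative Nid2 had 273 and 291 CPM in serum, 481 and 500.2 CPM in first 2i, 388 and 410 CPM in long 2i, 315 and 330 CPM in serum return, and 419 and 436 CPM in second 2i. All 6 libraries in 2i exceeded all 4 serum-grown ones, and the first rise was 0.80 ± 0.051 (adjusted p = 1.33e-11).

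Fn1, fibronectin, the most abundant member per kilobase in serum, had 1472 and 1660 CPM in serum, 2154 and 2354 CPM in first 2i, 1141 and 1224 CPM in long 2i, 1601 and 1575 CPM in serum return, and 2439 and 2492 CPM in second 2i. It followed Nid1 in being high in the short stays in 2i, but in long 2i it fell below serum (-0.41 ± 0.057, adjusted p = 2.87e-06). Sparc, a secreted collagen-binding protein made abundantly by parietal endoderm, had 188 and 174 CPM in serum, 291 and 293 CPM in first 2i, 459 and 459 CPM in long 2i, 227 and 229 CPM in serum return, and 351 and 352 CPM in second 2i. It was higher in every 2i library than in every serum-grown one and highest in long 2i (1.34 ± 0.049 against serum, adjusted p = 1.29e-15). Sparc rose in first 2i, where Col4a1 and Col4a2 fell, and which cells made these transcripts was not tested.

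With more passages in 2i, some members moved back towards serum and others moved further from it. Between long 2i and first 2i, which share the medium, 26 of 42 members were called, 10 higher and 16 lower, near the 61.2% of all genes (30.4% higher, 30.8% lower). Hspg2 and Lama5 gained most among the abundant genes, with log2 fold changes of 1.63 ± 0.13 (adjusted p = 1.55e-05) and 1.43 ± 0.095 (adjusted p = 1.96e-07). Col4a1 and Col5a3 rose by 2.05 ± 0.26 and 2.17 ± 0.37, yet stayed at 3.47 and 1.31 CPM on average. The rise of Col4a2, 1.04 ± 0.28 (adjusted p = 0.00369), was lost without first 2i replicate 2 (0.54, adjusted p = 0.103). Nid1 (-1.34 ± 0.048), Fn1 (-0.93 ± 0.058), Lamb1 (-0.82 ± 0.099), Lama3 (-0.77 ± 0.077), Lamc1 (-0.42 ± 0.052) and Nid2 (-0.30 ± 0.05) fell. Of these, Lamb1 had already been lower in first 2i than in serum, and Lamc1 had not been called there. Sparc, Col5a2 and Lamb2, higher in first 2i than in serum, rose further. Col9a2, Col13a1 and Col18a1, lower in first 2i, fell further. The calls of Lamb2, Col9a2, Col13a1 and Col18a1 were each lost under at least 1 alternative. Col5a1 rose by 1.31 ± 0.15 (adjusted p = 2.18e-07), which brought it to 11.2 CPM in long 2i against 4.52 CPM in first 2i.

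Against the original serum culture, long 2i had 28 of 42 members called, 9 higher and 19 lower, beside 68.9% of all genes (35.1% higher, 33.9% lower). Of the collagen chains 14 of 27 were lower and 3 higher. Col4a1 (-5.18 ± 0.11), Col5a3 (-4.63 ± 0.15), Col13a1 (-4.42 ± 0.27), Col4a2 (-4.27 ± 0.16) and Col18a1 (-2.49 ± 0.073) were still far lower in long 2i. Sparc, Lama3 and Lama5 were higher than in serum, by 1.34 ± 0.049, 1.26 ± 0.089 and 0.80 ± 0.093. These comparisons share libraries with the first one, so they are set side by side and not counted as separate evidence.

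After the return to serum most collagens were higher again than in long 2i. Serum return against long 2i had 34 of 42 members called, 25 higher and 9 lower, beside 71.4% of all genes (35.4% higher, 36% lower), and the members' median was 0.87, with -0.01 over all genes. Of the 27 collagen chains 19 rose and 3 fell (median 2.33). Col4a1 rose by 5.58 ± 0.11, Col13a1 by 5.46 ± 0.24, Col5a3 by 4.88 ± 0.15, Col4a2 by 4.71 ± 0.15 and Col18a1 by 2.33 ± 0.073, with adjusted p-values between 2e-19 and 2.5e-14. Col9a2 averaged 9.87 ± 0.46 CPM in serum return and 0.135 ± 0.11 CPM in long 2i. Col6a6 had 99 counts over serum return and 0 over long 2i, at least 24.0-fold higher. Those that fell included Col11a1, Col5a2, Col27a1, Lama3, Lama5, Lamb2, Nid2 and Sparc, each of which was also higher in long 2i than in serum, a comparison with the same long 2i libraries. The fall of Col27a1 was lost under 5 of the alternatives, among them each that left out 1 library (-1.02 to -0.66).

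Set against the original serum culture, the returned cells differed in fewer members. Of 42, 16 were called, 13 higher and 3 lower, beside 31% of all genes (16.5% higher, 14.5% lower), and 10 calls held under every alternative. Col13a1 averaged 16.2 CPM in serum return and 7.89 CPM in serum (log2 fold change 1.04 ± 0.13, adjusted p = 9.1e-06). Col4a1 and Col4a2 were higher in serum return by 0.40 ± 0.07 and 0.44 ± 0.10, and Lama3 and Sparc by 0.42 ± 0.092 and 0.33 ± 0.048. Col26a1 averaged 2.18 ± 0.34 CPM in serum return and 0.465 ± 0.29 CPM in serum (2.18 ± 0.39, adjusted p = 0.000271), and Col20a1 averaged 6.18 ± 0.45 CPM in serum return and 3.05 ± 0.33 CPM in serum (1.02 ± 0.18, adjusted p = 0.000247). Col11a1 was lower, at 2.18 CPM in serum return and 5.12 CPM in serum (-1.21 ± 0.17, adjusted p = 1.7e-05). Thus members that 2i had lowered, such as Col13a1, and members that 2i had raised, such as Lama3, were both higher after the return. Hspg2, Col18a1, Fn1, Lamc1, Lama5 and Lamb1 did not pass the test, with log2 differences of -0.33, -0.16, 0.02, 0.00, 0.17 and 0.13. Without the filter on low counts Hspg2 (adjusted p = 2.02e-08) and Col18a1 (adjusted p = 0.0197) were called lower and Lama5 (adjusted p = 0.00985) higher, so the result for these 3 depends on the fit. Primitive and parietal endoderm markers had 4 of 14 higher and 1 lower here, with Gata6 at 5.99 CPM in serum return and 1.15 CPM in serum.

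The second entry into 2i shares no library with the first. Second 2i against serum return had 34 of 42 members called, 12 higher and 22 lower, beside 65.6% of all genes (32.3% higher, 33.3% lower), with a median of -0.63. Collagen chains again gave most of the falls, 18 of 27, with 3 higher. Of the 42 members, 19 were lower in both responses and 11 higher in both, and 1, Col17a1, was higher in the first and lower in the second. Over all genes tested, 23.8% were lower in both, 23.3% higher in both, and 2.18% higher and then lower. Col17a1, a hemidesmosome collagen, averaged 2.92 ± 0.82 CPM in first 2i and 1.68 ± 0.28 CPM in serum, and 1.53 ± 0.073 CPM in second 2i and 3.05 ± 0.56 CPM in serum return. Its first rise was lost with DESeq2 (0.79, adjusted p = 0.0754), without serum replicate 1 (0.64) and without first 2i replicate 2 (0.48). Its second fall was lost without serum return replicate 2 (-0.79).

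**Figure D4:**
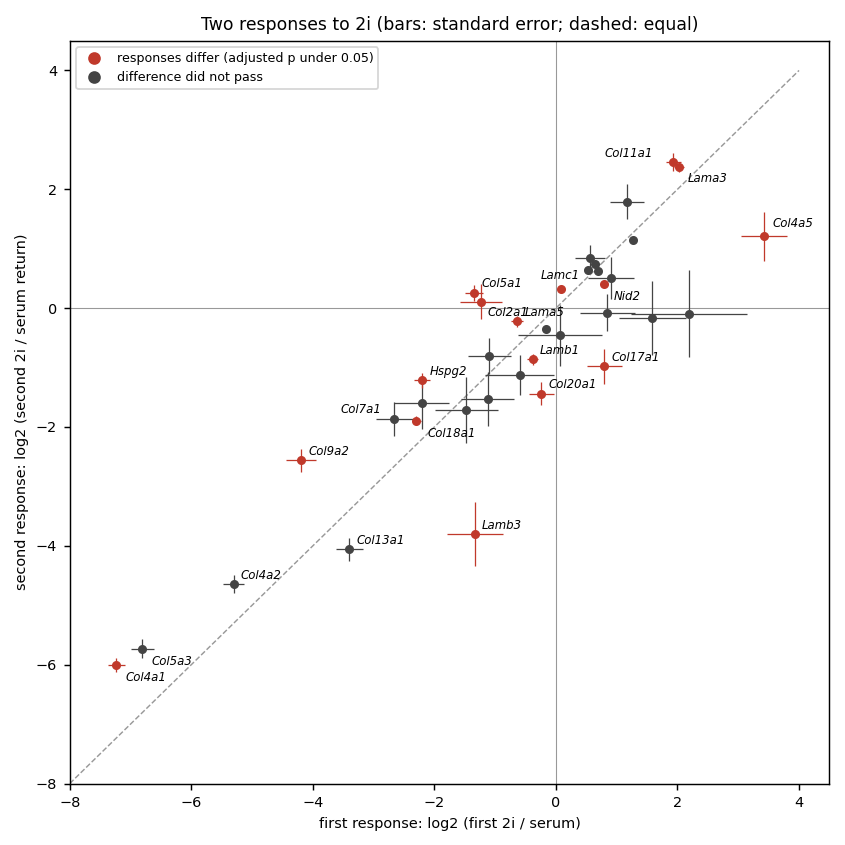
Log2 fold change of second 2i against serum return (vertical axis) and of first 2i against serum (horizontal axis) for 37 tested members, with standard errors as bars and equality as a dashed line. Points in red passed the test of the difference; Col4a1, Hspg2 and Col9a2 lie above the line on the side of smaller second falls, and Col4a5 lies below it on the side of a smaller second rise.

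The size of the response differed between the stays for 17 of 42 members, 10 with a positive and 7 with a negative difference, beside 39.4% of all genes (18.4% positive, 21% negative). Here 10 held under every alternative. Col4a1 fell less the second time, with a difference of 1.23 ± 0.28 (adjusted p = 0.00187), and so did Hspg2 (0.98 ± 0.18, adjusted p = 0.00383), Col9a2 (1.63 ± 0.36, adjusted p = 0.00141) and Col18a1 (0.40 ± 0.099, adjusted p = 0.00306). Col5a1, which fell in the first response, did not pass the test in the second (0.26 ± 0.13, adjusted p = 0.0889), and the difference was 1.61 ± 0.20 (adjusted p = 3.21e-06). The differences of Col4a2 (0.66 ± 0.30, adjusted p = 0.0855) and Col5a3 (1.07 ± 0.44, adjusted p = 0.0578) did not pass. Lama3 was higher in the second stay, at 81.7 CPM in second 2i and 48.0 CPM in first 2i (0.77 ± 0.071, adjusted p = 5.07e-08). Second against first 2i had 21 of 42 members called, 14 higher and 7 lower, beside 37.7% of all genes (18.1% higher, 19.6% lower), and 13 of these calls held under every alternative.

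Among genes that modify and secrete collagen, more fell than rose on each entry into 2i, and the split was more even in long 2i. Of 27 tested genes of collagen processing and secretion, 15 were lower and 7 higher in first 2i against serum (81.5% called beside 70% of all genes, median -0.75), and 16 were lower and 7 higher in second 2i against serum return (85.2% beside 65.6%). In long 2i 12 were lower and 9 higher than in serum (77.8% called beside 68.9% of all genes, median 0.04). Against first 2i, 11 were higher and 7 lower in long 2i (66.7% beside 61.2%). Loxl2, a lysyl oxidase that cross-links collagen IV, averaged 1.05 CPM in first 2i and 70.0 CPM in serum (log2 fold change -6.05 ± 0.13, adjusted p = 2.67e-19). Adamts14, a procollagen peptidase, fell by 4.71 ± 0.18, Fkbp10, a collagen prolyl isomerase, fell by 4.45 ± 0.15, and Serpinh1, the collagen chaperone of the endoplasmic reticulum, fell by 2.90 ± 0.095. In second 2i against serum return the log2 fold changes of Loxl2, Adamts14 and Fkbp10 were -5.81, -4.59 and -4.31. On serum return Loxl2 averaged 72.5 CPM, against 0.312 CPM in long 2i.

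Receptors for the matrix moved in both directions. Of 22 tested, 12 were lower and 8 higher in first 2i against serum (90.9% called beside 70% of all genes), and 11 were lower and 6 higher in second 2i against serum return (77.3% beside 65.6%). Itga9, an integrin alpha chain, averaged 1.58 CPM in first 2i and 52.3 CPM in serum (-5.05 ± 0.12, adjusted p = 1.38e-18), and Itga5, the alpha chain of the main fibronectin receptor, averaged 26.3 CPM in first 2i and 139 CPM in serum (log2 fold change -2.40). Ddr2, a receptor tyrosine kinase for fibrillar collagen, averaged 23.3 CPM in first 2i and 1.07 CPM in serum (4.44 ± 0.16, adjusted p = 6.92e-16), and 56.4 CPM in second 2i against 2.93 CPM in serum return. Fibronectin and the alpha chain of its main receptor thus moved in opposite directions in first 2i.

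Of 20 matrix proteases and inhibitors tested, 11 were lower and 5 higher in first 2i against serum (80% called beside 70% of all genes), and the counts were the same in second 2i against serum return (beside 65.6%). Mmp14, the membrane-bound collagenase, averaged 2.58 CPM in first 2i and 39.5 CPM in serum (log2 fold change -3.94 ± 0.11, adjusted p = 3.46e-17), and Timp2, an inhibitor that also takes part in activating Mmp2 with Mmp14, averaged 1.07 CPM in first 2i and 6.20 CPM in serum. Mmp2, a gelatinase that degrades collagen IV, averaged 2.05 CPM in long 2i and 22.4 CPM in serum. Among 14 other basement membrane genes tested, 5 were higher and 4 lower in first 2i against serum, a share of 64.3% that is below that of all genes. Ntn1, netrin, a laminin-related protein, averaged 65.8 CPM in first 2i and 29.9 CPM in serum, and it reached 204 CPM in long 2i. Fbn1, fibrillin, averaged 2.44 CPM in first 2i and 8.14 CPM in serum. Vwa1, a perlecan-binding protein, averaged 7.56 CPM in serum. In first 2i it was under 0.0716 CPM, the level of 3 counts over that group, so no fold is given.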

How the data were processed

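The data are the authors' deposited counts, raw and whole, of reads per gene in 10 libraries of total RNA. The tools listed in the submitters' processing notes are HTSeq 0.5.4p5, TopHat2 2.0.4, CASAVA 1.8.2 and DESeq2, with build mm9. Annotation and strand setting: not given in the sources used here. For that reason values of overlapping, antisense and near-identical genes are uncertain. Each file held 24015 genes and 5 summary categories, which were left out: 10.34 to 11.78% of records fell outside features, 0.687 to 0.73% were ambiguous and 33.41 to 36.51% were not uniquely placed.

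Groups follow the culture medium labels. In R 4.3.3, edgeR 4.0.16 filtered genes (filterByExpr by group, minimum count 10, minimum total 15; 14220 left), scaled them by TMM and fitted 1 robust quasi-likelihood model by group to the 10 libraries together (5 residual degrees of freedom). Two-sided p-values of 8 contrasts were adjusted by the Benjamini-Hochberg method over all genes tested, and a gene was called at an adjusted p under 0.05. Standard errors are the log2 fold change over the root of F. The procedure was tested on simulated counts, with the same spread for every gene and changes only in genes that were not low. That test does not cover members with few counts. Comparisons that share libraries are not independent. The counts include 1 tested member whose own values are not reported here.

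The members and the related gene lists were chosen with earlier results of these data known. Values in every library are given for Col4a1, Col4a2, Lama1, Lama5, Lamb1, Lamc1, Nid1, Nid2, Sparc, Fn1 and Hspg2, and for other members with a mean of at least 10 CPM and a called log2 fold change of at least 1. Other members are named where called at 1 CPM or more, except Lama4, Col1a1 and Col23a1, which are shown only in the figures. Of related lists, up to 4 called genes with the largest change at 5 CPM or more are named.

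Alternatives were RLE size factors, DESeq2 1.42.0, no filter, Rn45s left out, the title series as a block, a fit of the compared groups alone, and each library left out in turn. Promoter windows and neighbours are from RefSeq GRCm38.p6, where all 60 symbols matched; exon lengths are from GENCODE vM21.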

Additional observations from a re-analysis of the deposited data

Results flagged for a closer look

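The response to 2i differed between the stays, by the test of the difference itself (second 2i minus serum return, less first 2i minus serum, edgeR), for the members below. Counting the member not reported here, 17 of 42 tested members were called, 40.5% beside 39.4% of all genes tested. The number called is therefore no trait of this set. All values below are such differences on the log2 scale, and all rest on 2 libraries a group.

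Col4a1 (1.23, adjusted p = 0.00187), Hspg2 (0.98, adjusted p = 0.00383), Col9a2 (1.63, adjusted p = 0.00141) and Col18a1 (0.40, adjusted p = 0.00306) fell less in the second response. Col5a1 fell only in the first (1.61, adjusted p = 3.21e-06). Nid2 (-0.39, adjusted p = 0.000208) rose less in the second. Lamb1 (-0.47, adjusted p = 0.00595) fell more. Col20a1, a fibril-associated collagen, fell in the second response and did not pass in the first (-1.20, adjusted p = 0.00244), and Col17a1 was higher in the first and lower in the second (-1.78, adjusted p = 0.0022). These 9 calls of the difference held under every alternative. The single responses of Col17a1 did not, as its first rise was lost under 3 of 10 alternatives and its second fall under 1.

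Another 7 were each lost under at least 1 alternative. Col4a5 (-2.21, adjusted p = 0.00657) was lost without serum return replicate 1 (-1.84, adjusted p = 0.0916), and Lamb3 (-2.47, adjusted p = 0.0192) without first 2i replicate 2 (-2.02, adjusted p = 0.117) or second 2i replicate 2 (-1.69, adjusted p = 0.128). Lamc1 (0.23, adjusted p = 0.0164) was lost without first 2i replicate 1 (0.17, adjusted p = 0.103), without serum replicate 2 (0.18, adjusted p = 0.0918) or without second 2i replicate 1 (0.22, adjusted p = 0.051). Lama3 (0.34, adjusted p = 0.0236), Lama5 (0.41, adjusted p = 0.0303), Col11a1 (0.53, adjusted p = 0.0394) and Col2a1, a cartilage collagen (1.35, adjusted p = 0.0255), were lost without any of 4 or more libraries taken singly.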

How the results depend on the processing

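The counts of called members and genes over the 8 comparisons were recomputed in 168 alternatives, of which 165 stayed within 1.5 times. Genes called in serum return against serum, 4407, ranged from 2437 (without serum return replicate 1) to 3333 with 1 library left out, and were 2822 without serum replicate 2. Genes called in second against first 2i, 5357, ranged from 3556 (without second 2i replicate 2) to 4218. Members called ranged, with 1 library left out, from 29 to 34 in first 2i against serum and from 13 to 15 in serum return against serum.

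Of 2492 alternative values of single members, 2291 kept direction and side of the threshold, 156 lost the call, 35 gained it and 10 changed sign, none of them called. Lamc1 in serum return against serum was -0.0018 with RLE size factors and with DESeq2, -0.0064 with only the groups compared, and -0.0476 to 0.0563 with 1 library left out. Leaving out 1 library gave -0.0634 to 0.1104 for Fn1 in that comparison, -0.0239 to 0.0974 for Lama1 in long against first 2i, -0.2035 to 0.1 for Col5a1 in long 2i against serum, and -0.0613 to 0.7092 for Col13a1 in second against first 2i. The cause of these shifts was not tested.

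The titles begin with LEM or MLE, prefixes that the labels do not explain, and each group has 1 library under either. Deviations of libraries of the same series correlated at 0.0994 to 0.168 over 10 pairs of groups, 9 above 0.1, and the labels tie the prefixes to no shared culture or day, so the series are not taken as pairs. The lowest value lies just under the limit of 0.1 used. With the series as a replicate block 38 members were called in first 2i against serum, 26 in long against first 2i, 32 in long 2i against serum, 34 in serum return against long 2i, 22 in serum return against serum, 35 in second 2i against serum return, 24 in second against first 2i and 22 for the difference of the responses. In serum return against serum the block made Col18a1 (-0.16, adjusted p = 7.65e-05) and Hspg2 (-0.32, adjusted p = 0.0437) lower; over all alternatives the adjusted p ran from 7.65e-05 to 0.475 for Col18a1 and from 2.02e-08 to 0.283 for Hspg2. All 196 member calls in the first 7 comparisons had the same direction within each series. The calls were made on these same libraries, so this was nearly fixed in advance and adds no support.

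With 2 libraries a group, a single library can decide a call, and members under about 1 CPM rest on few counts.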

Other observations

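Some members lie next to each other in RefSeq, and the neighbours did not all move together. The following genes were chosen after their values were seen. Col6a5 lies between Col6a4 and Col6a6 on chromosome 9, all encoding collagen VI chains. Col6a4 had 1 count in second 2i and 81 in serum return, 61.2-fold lower (10.7 to 2450), and Col6a6 had 2 counts in second 2i and 99 in serum return, 37.4-fold lower (10.1 to 313). Col6a5 averaged 1.56 ± 0.11 CPM in second 2i and 1.63 ± 0.074 CPM in serum return (SD, n = 2 each) and did not pass the test (log2 difference -0.08, adjusted p = 0.845). Col3a1, a major chain of fibrillar collagen in connective tissue, had at most 20 counts in any library, and its neighbour Col5a2 averaged 4.85 ± 0.086 CPM in long 2i and 0.980 ± 0.24 CPM in serum (log2 fold change 2.31 ± 0.26, adjusted p = 8.12e-08). Col4a5 and Col4a6 start 1343 bases apart on the X chromosome, and Col4a6 had at most 2 counts in any library while Col4a5 averaged 3.53 CPM in first 2i.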
